A study of Drosophila melanogaster with 4 samples.

Results

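Transcripts of the mitochondrial genome were followed in sorted embryonic muscle cells of Drosophila melanogaster. The members are all features that the per-library count files place on the mitochondrial chromosome, 38 of 23882 features in all. They comprise 2 rRNAs, 13 mRNAs, 22 tRNAs and 1 control region feature, mt:ori. Of these, 16 stand in the deposited gene table, and the 22 tRNA features appear only in the per-library files. The series compared a wild-type line (labelled WT) with a line mutant for spalt major (labelled salm[340]), a gene for a zinc finger transcription factor, to find its targets during muscle formation. Both lines came from 3 h of egg laying at 25 C followed by 7 h of aging and were collected as homozygous embryos at stage 11. GFP-positive cells were sorted from dissociated embryos, and polyA RNA was sequenced from 2 libraries per line. GFP served both to pick embryos and to sort cells, and the labels name no driver for it. The series describes the libraries of a line as technical replicates, so every n of 2 counts libraries and every p-value measures only spread between libraries. The edgeR and DESeq2 fits pool part of that spread over all features tested.

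Mitochondrial DNA of animals carries a small set of genes on both strands. Long precursor RNAs are read from it, and the excision of tRNAs that lie between the other genes frees the mRNAs and rRNAs, a scheme known as tRNA punctuation. The mRNAs encode core subunits of the respiratory chain and of ATP synthase, the rRNAs and tRNAs serve the mitochondrial ribosome, and in Drosophila the mRNAs and the large rRNA carry short poly(A) tails. All proteins that transcribe, cut, stabilise and translate these RNAs come from nuclear genes.

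Gene counts per library were 15177939 to 21861836, of which 5417157 and 6015807 in WT against 9246603 and 9903889 in salm[340] fell on mitochondrial features. The RNA of salm itself stood at 25.7 and 24.8 CPM in WT and at 93.2 and 97.7 CPM in salm[340]. CPM are counts per 1000000 of a library size rescaled by TMM, a method described below. It was thus present in the mutant libraries, and since no label tells how the allele alters its RNA, its level is no check of the labels. Mesoderm and muscle markers, which define the labelled tissue, were all detected. The summed level of 9 such markers was 1145 and 1163 CPM in WT against 1802 and 1878 CPM in salm[340], and Mef2, a master regulator of muscle genes, stood at 254 to 290 CPM in the 4 libraries. Most of the higher sum came from Mhc, the muscle myosin heavy chain, at 324 and 321 against 786 and 786 CPM. The markers kirre, sns (322 and 329 against 419 and 439 CPM), zfh1 and stumps were also higher in both mutant libraries. By contrast, htl was lower in both mutant libraries (54.0 and 56.6 against 46.9 and 46.0 CPM), and twi, nau and Mef2 overlapped. Markers of other cell types were present too, with none at 0 in all libraries. Epidermis markers (4 genes) summed to 413 and 425 CPM in WT against 548 and 581 CPM in salm[340], neuron and glia markers (5 genes) to 131 and 141 against 134 and 157 CPM, and hemocyte markers (5 genes) to 64.0 and 68.9 against 52.0 and 57.0 CPM. Of the epidermis markers, cora carried the higher sum (211 and 211 against 377 and 391 CPM), while shg (90.2 and 99.4 against 75.6 and 81.7 CPM) and crb (82.1 and 83.9 against 61.5 and 68.6 CPM) were lower in both mutant libraries. Of the hemocyte markers, srp, Pxn and gcm were lower in both mutant libraries, while Hml and PPO2 were higher. For PPO2 the values were 6.19 and 6.10 against 14.7 and 15.5 CPM. Of the neuron and glia markers, scrt was higher and wor lower in both mutant libraries, and elav, repo and nSyb overlapped. The part of other cell types in the mitochondrial difference was not tested.

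Mitochondrial RNA took the larger part of the counts in the mutant libraries and the smaller part in the wild type. Its share of the gene counts was 24.8% and 29.3% in the WT libraries and 60.9% and 63.2% in the salm[340] libraries, or 27.0% ± 3.19 against 62.0% ± 1.60 (SD, n = 2 each). The lines did not overlap, and the difference of 35.0 percentage points was far larger than the spread within either line. An exact two-sided permutation test gave p = 0.333, the smallest that 2 libraries against 2 allow. Nuclear genes received 16444679 and 14519537 counts in the WT libraries but 5931336 and 5772355 in the mutant ones, which leaves them at lower depth in the mutant. In bulk RNA, fewer cells of a type and less RNA per cell cannot be told apart, and a share of counts gives no amount of RNA per cell.

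**Figure D1:**
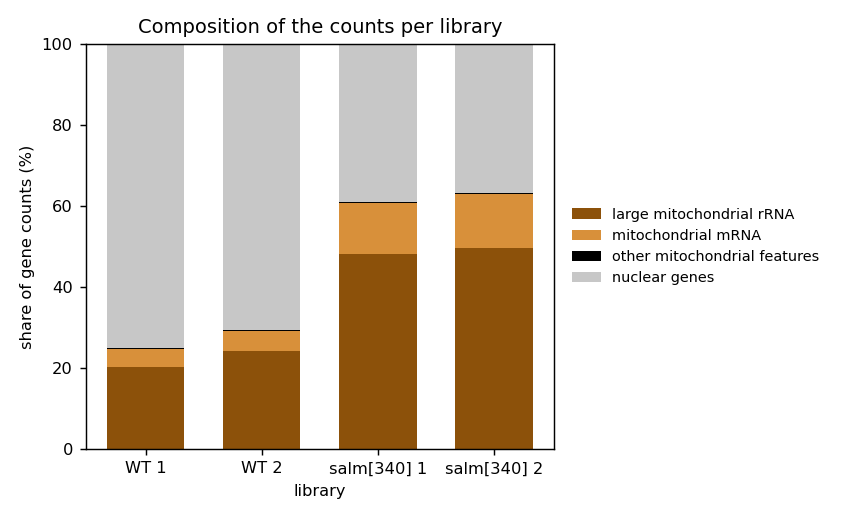
Share of all gene counts (percent, y axis) in each of the 4 libraries (x axis), split into the large mitochondrial rRNA, mitochondrial mRNAs, other mitochondrial features and nuclear genes. Mitochondrial segments together reach 24.8% and 29.3% in WT against 60.9% and 63.2% in salm[340], and the large rRNA is the largest mitochondrial segment in every bar.

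Other RNA classes moved with the mitochondrial share. Nuclear features of gene type rRNA, 99 in number with 67 at 0 throughout, took 0.110% and 0.0903% of the nuclear counts in WT against 0.236% and 0.283% in salm[340]. With the rRNA pseudogenes added (117 features), these shares were 0.768% and 0.591% against 2.60% and 2.51%. Histone genes of the replication-dependent cluster (111 genes), whose mRNAs lack a poly(A) tail, took 0.0836% and 0.0852% against 0.138% and 0.133%. Each of these values was higher in both mutant libraries, and their part in the mitochondrial difference was not tested.

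Both mitochondrial rRNAs rose relative to the bulk of genes. The large rRNA (mt:lrRNA, mitochondrial genome, 12735 to 14058, minus strand) forms the core of the large mitochondrial ribosomal subunit. It had 4418903 and 4945551 counts in WT against 7300260 and 7768842 in salm[340]. Scaled by TMM, a method that centres the libraries on the bulk of genes, it rose from 147110 ± 23783 to 738407 ± 35863 CPM (SD, n = 2 each), a log2 fold change of 2.33 (SE 0.0929, adjusted p = 4.025e-07 by edgeR). Both mutant libraries lay above both wild-type libraries in count and in CPM. The small rRNA (mt:srRNA, 14131 to 14916, minus strand), part of the small subunit, had 19372 and 22587 counts against 37695 and 37042. Its log2 fold change was 2.47 (SE 0.114, adjusted p = 1.034e-06 by edgeR), close to that of the large rRNA, again without overlap between the lines.

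These 2 rRNAs were measured at very unequal levels. Per kb of feature, the large rRNA had 135 and 130 times the counts of the small rRNA in WT against 115 and 125 times in salm[340]. The 4 ratios did not overlap between the lines, with the mutant libraries lower. The ribosome holds both rRNAs in equal number.

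All 13 mRNAs rose in the TMM fit, each without overlap between the lines. Their log2 fold changes had a median of 2.67 and ranged from 2.18 for mt:ND6 to 2.96 for mt:ATPase8. Over all members, edgeR called 28 higher and 0 lower at an adjusted p under 0.05, against 10% of all features called higher (1080 of 10756) and 7.16% called lower. The 28 include mt:tRNA:Ser-TGA, whose call is no support for a rise, for the reason given with the tRNAs. Of the 38 members, 34 were tested, and 4 sparse tRNA features fell below the filter on low counts. All 34 had a positive log2 fold change, and their median was 2.42 (range 1.47 to 3.37, the upper end set by the sparse serine tRNA mt:tRNA:Ser-TGA), beside -0.01 over all features tested. In CPM, 34 of the 38 members were higher in both mutant libraries than in both wild-type libraries. This pattern was seen in 28.4% of the features tested. The 34 with it include mt:tRNA:Ser-TGA. They also include the isoleucine and glutamine tRNAs, which were not tested.

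Among the mRNAs of cytochrome c oxidase (complex IV), mt:CoI (1474 to 3009, plus strand), which encodes the catalytic subunit, had 320900 and 340461 counts in WT against 682334 and 721990 in salm[340]. It rose from 10373 ± 1289 to 68813 ± 3064 CPM (SD, n = 2 each), a log2 fold change of 2.73 (SE 0.0843, adjusted p = 9.837e-08 by edgeR). For mt:CoII (3083 to 3767, plus strand), whose product receives electrons from cytochrome c, the counts were 86914 and 92120 against 135457 and 159064. Its log2 fold change of 2.36 was the smallest of the complex IV subunits. The last of them, mt:CoIII (4736 to 5524, plus strand), had 225267 and 231929 against 381749 and 462399 counts and a log2 fold change of 2.53. In each of these genes the lowest mutant count exceeded the highest wild-type count.

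Cytochrome b (mt:Cyt-b, 10499 to 11635, plus strand) is the mitochondrially encoded subunit of complex III. It had 135216 and 149264 counts in WT against 278953 and 302645 in salm[340], with a log2 fold change of 2.67 (SE 0.0992, adjusted p = 2.857e-07 by edgeR). The ATP synthase mRNAs (complex V) differed in counts but both rose. For mt:ATPase6 (4062 to 4736, plus strand), a subunit of the proton channel, counts were 34339 and 38823 against 62352 and 63593, with a log2 fold change of 2.42. For mt:ATPase8 (3907 to 4068, plus strand), a small membrane subunit, they were 143 and 209 against 356 and 522, with a log2 fold change of 2.96 (SE 0.248). Neither gene's lines overlapped. The 2 reading frames overlap by 7 bases and were counted separately from the same fragments where these spanned both.

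Complex I, the NADH dehydrogenase, has 7 mitochondrial subunits. The largest counts were those of mt:ND5 (6409 to 8125, minus strand), at 59924 and 66667 in WT against 128000 and 136765 in salm[340], with a log2 fold change of 2.71. On the same strand, mt:ND1 (11721 to 12659) had 47555 and 51059 against 107632 and 120109 counts and a log2 fold change of 2.85 (SE 0.0990, adjusted p = 1.734e-07 by edgeR). For mt:ND4 (8207 to 9545) the counts were 50114 and 55122 against 94888 and 87127, with a log2 fold change of 2.43. Both mutant libraries were high for each of these 3 mRNAs. On the plus strand, mt:ND3 (5608 to 5961) had 8619 and 8856 counts in WT against 21397 and 13882 in salm[340]. Its mutant libraries differed from each other more than its wild-type libraries did, and its log2 fold change was 2.66.

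The remaining complex I mRNAs were scarce. For mt:ND2 (240 to 1263, plus strand), counts were 4499 and 6836 in WT against 6232 and 19887 in salm[340], and the log2 fold change was 2.84 (SE 0.446, adjusted p = 0.00223 by edgeR). Its raw counts overlapped between the lines, while its CPM did not. Without salm[340] replicate 2 the log2 fold change was 1.75, and without replicate 1 it was 3.44. For mt:ND4L (9545 to 9835, minus strand) they were 452 and 642 against 748 and 1801, with a log2 fold change of 2.86 (SE 0.355). Counts of mt:ND6 (9971 to 10495, plus strand) were 398 and 430 against 708 and 491, and its log2 fold change of 2.18 (SE 0.175) was the smallest of the 13 mRNAs.

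Both WT libraries were needed for most of these calls. Without WT replicate 1 edgeR called 8 members, and without WT replicate 2 it called 10, of 14 and 16 features called in all. The 8 were mt:CoI, mt:ATPase6, mt:ND5, mt:ND4, mt:Cyt-b, mt:ND1 and both rRNAs, and the 10 were those with mt:CoII and the tyrosine tRNA added. The direction did not turn in the 26 members followed through refits. These were both rRNAs, all mRNAs, mt:ori and part of the tRNAs. The tryptophan tRNA and several other tested tRNAs were not among them. Each of the 26 kept a positive log2 fold change in all 328 refitted values over 13 other settings (0.16 to 3.60). The 26 include mt:tRNA:Ser-TGA, which sets the upper end. Its values are no support for a rise, for the reason given with the tRNAs. With library size alone as the scaling, the median of all features moved to -1.20 and that of the mitochondrial members to 1.24.

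**Figure D2:**
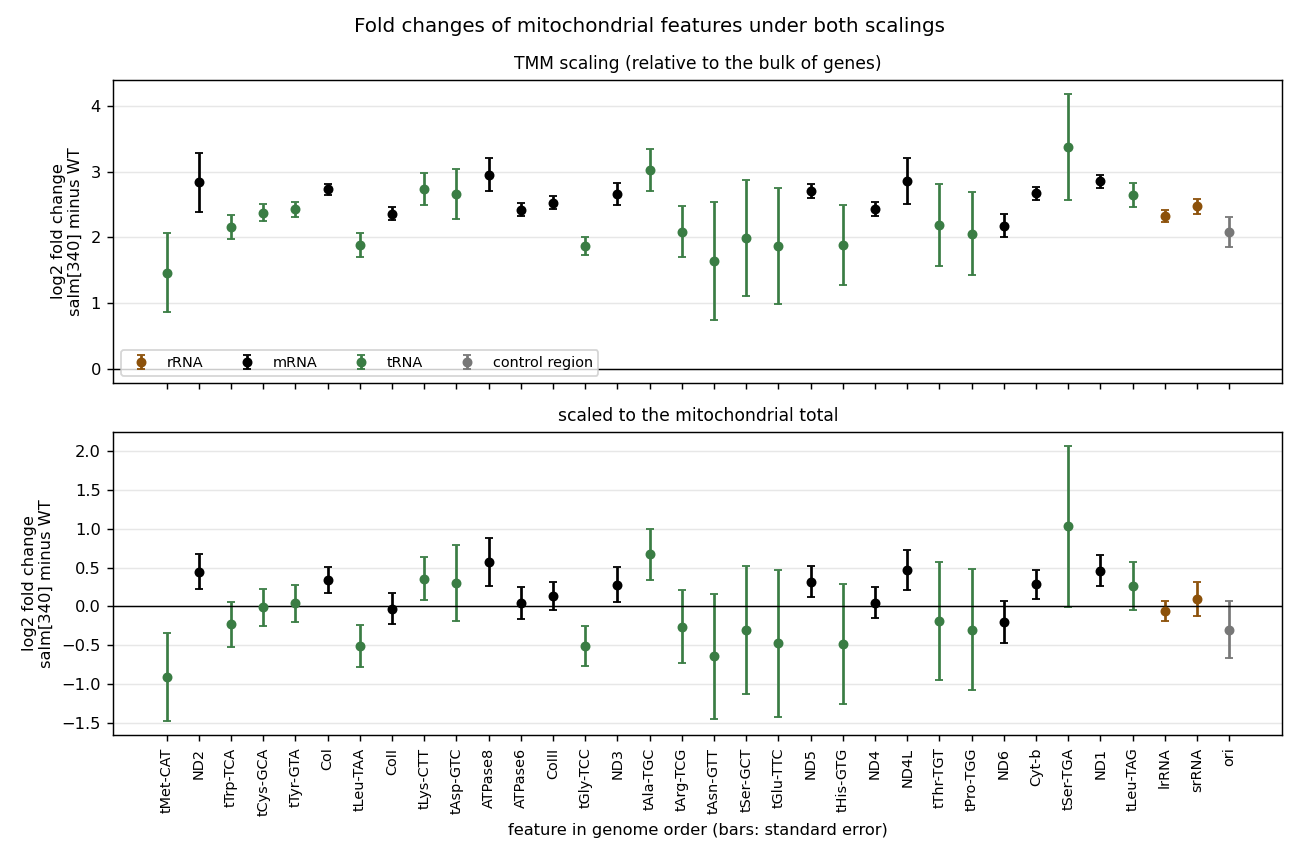
Log2 fold change of salm[340] over WT (y axis, bars are standard errors from edgeR) for the 34 tested mitochondrial features in genome order (x axis), coloured by class; upper panel with TMM scaling, lower panel scaled to the mitochondrial total. Upper values all lie above 0 (1.47 to 3.37), and lower values scatter around 0 (-0.91 to 1.03), with 18 above it and 16 below.

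To compare the mitochondrial RNAs with one another, each library was next scaled to its own mitochondrial total. Messenger RNA then took a somewhat larger share in the mutant and the large rRNA a smaller one. The mRNA share of the mitochondrial counts was 18.0% and 17.3% in WT against 20.6% and 21.1% in salm[340], or 17.7% ± 0.465 against 20.8% ± 0.388 (SD, n = 2 each). The large rRNA took 81.6% and 82.2% against 79.0% and 78.4%, or 81.9% ± 0.450 against 78.7% ± 0.359. These shares are nearly complements of each other, and with the large rRNA left out of the total the mRNA share was 97.6% and 97.4% against 97.7% and 97.9%, a difference of 0.280 percentage points. In the full total, neither class overlapped between the lines, and the differences of 3.17 and -3.19 percentage points exceeded the spread within a line (exact two-sided permutation p = 0.333 each, the smallest possible). The small rRNA took 0.358% and 0.375% against 0.408% and 0.374%, and its lines overlapped. Transfer RNA features took 0.0818% and 0.0853% against 0.0829% and 0.0766%, also with overlap. With the large rRNA left out of the total, the tRNA share was 0.444% and 0.479% against 0.394% and 0.355%, lower in both mutant libraries.

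In this scaling the mRNAs did not move alike. edgeR called 2 members higher and 0 lower, with 5 at an unadjusted p under 0.05. Of all features, 0.112% were called higher and 94.4% lower, 94.5% in all, with the median feature at -2.41 in this scaling. With so many features called, the adjustment leaves p-values almost as they were. The fit also pools its estimate of spread over all features tested, most of them nuclear. Its common dispersion was 0.0385 in this scaling against 0.0157 with TMM. A p-value here thus does not measure a member's own replicate spread alone. For mt:ND5, whose replicate shares were nearly equal within each line, the SE was 0.200 (edgeR unadjusted p = 0.11). DESeq2 with the same totals called 4 members higher (mt:CoI, mt:ND5, mt:Cyt-b and mt:ND1) and 2 lower (the leucine tRNA mt:tRNA:Leu-TAA and the glycine tRNA). One called member was mt:ND1, whose share was 0.878% and 0.849% in WT against 1.16% and 1.21% in salm[340] (log2 fold change 0.46, SE 0.203, edgeR adjusted p = 0.0253). With the mRNA counts in place of the mitochondrial total, it was 0.22 higher on the log2 scale and no longer passed (edgeR adjusted p = 0.272). It also did not pass without salm[340] replicate 1 or replicate 2 (edgeR adjusted p = 0.214 and 0.281), at log2 fold changes of 0.49 and 0.43. The other, the alanine tRNA, is described with the tRNAs.

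Within the mitochondrial total, 11 of the 13 mRNAs had positive and 2 had negative log2 fold changes, with a median of 0.29. For mt:CoI the share was 5.92% and 5.66% in WT against 7.38% and 7.29% in salm[340], with a log2 fold change of 0.34 that did not pass (edgeR adjusted p = 0.0518). For mt:Cyt-b it was 2.496% and 2.48% against 3.02% and 3.06%, and for mt:ND5 1.11% and 1.11% against 1.38% and 1.38%. In these 3 mRNAs, in mt:ND1 and in mt:ATPase8, both mutant shares lay above both wild-type shares, and none of the 13 had both below. By contrast, mt:CoII stayed at 1.60% and 1.53% against 1.46% and 1.61%, and mt:CoIII at 4.16% and 3.86% against 4.13% and 4.67%. Over all 38 members, 7 shares were higher in both mutant libraries and 6 lower, and 25 overlapped, the 4 untested members among them. The 7 include mt:tRNA:Ser-TGA, which is no support for a rise, for the reason given with the tRNAs. Of the features tested, 0.316% were higher and 97.5% lower.

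Grouped by complex, the mRNA counts kept nearly the same division in both lines. Complex IV took 65.0% and 63.7% of the mRNA counts in WT against 63.1% and 64.3% in salm[340], and complex I 17.6% and 18.2% against 18.9% and 18.2%, both with overlap. Complex III took 13.9% and 14.3% against 14.7% and 14.5%, without overlap. Complex V took 3.54% and 3.74% against 3.30% and 3.07%, also without overlap and lower in the mutant. Each of these differences was below 1 percentage point.

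Counts of different mRNA features were compared per kb of feature. Such values need not give the abundance of whole mRNAs. Effects of polyA selection and of features as short as 162 bases (mt:ATPase8) were not tested. In all 4 libraries mt:CoIII was first, at 30.2% and 29.1% of the summed mRNA counts per kb in WT against 26.9% and 29.4% in salm[340], and mt:CoI second, at 22.1% and 22.0% against 24.7% and 23.6%. In the order, 3 pairs of neighbours changed places between the lines in both libraries of each. The mRNA mt:CoII was above mt:Cyt-b in WT, at 13.4% and 13.3% against 12.6% and 13.0%, and below it in salm[340], at 11.0% and 11.7% against 13.7% and 13.4%. In the same way mt:ATPase6 was above mt:ND1 in WT (5.38% and 5.70% against 5.35% and 5.39%) and below it in salm[340] (5.14% and 4.73% against 6.38% and 6.43%). The pair mt:ND4 and mt:ND5 held places 7 and 8 in WT and the reverse in salm[340]. In WT, mt:ATPase6 and mt:ND1 did not differ beyond the spread between replicates.

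Below them, mt:ND3, mt:ND2, mt:ND4L, mt:ATPase8 and mt:ND6 kept places 9 to 13 in every library. From the highest to the lowest mRNA feature the range was wide. Per kb, mt:CoIII had 377 and 359 times the counts of mt:ND6 in WT against 359 and 627 times in salm[340]. Adjoining mRNA features on 1 strand differed as well, and whether they lie on shared RNAs was not tested. Per kb, mt:ATPase6 had 57.6 and 44.6 times the counts of the overlapping mt:ATPase8 in WT against 42.0 and 29.2 times in salm[340], and mt:ND4 had 24.1 and 18.7 times those of mt:ND4L in WT against 27.6 and 10.5 times in salm[340]. The first ratio was lower in both mutant libraries and the second overlapped. The ratio of mt:CoII to mt:CoI per kb was 60.7% in each WT library and 44.5% and 49.4% in salm[340], without overlap. The ratio of the large rRNA to mt:CoI also separated the lines. Per kb, the large rRNA had 16.0 and 16.9 times the counts of mt:CoI in WT against 12.4 and 12.5 times in salm[340].

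**Figure D3:**
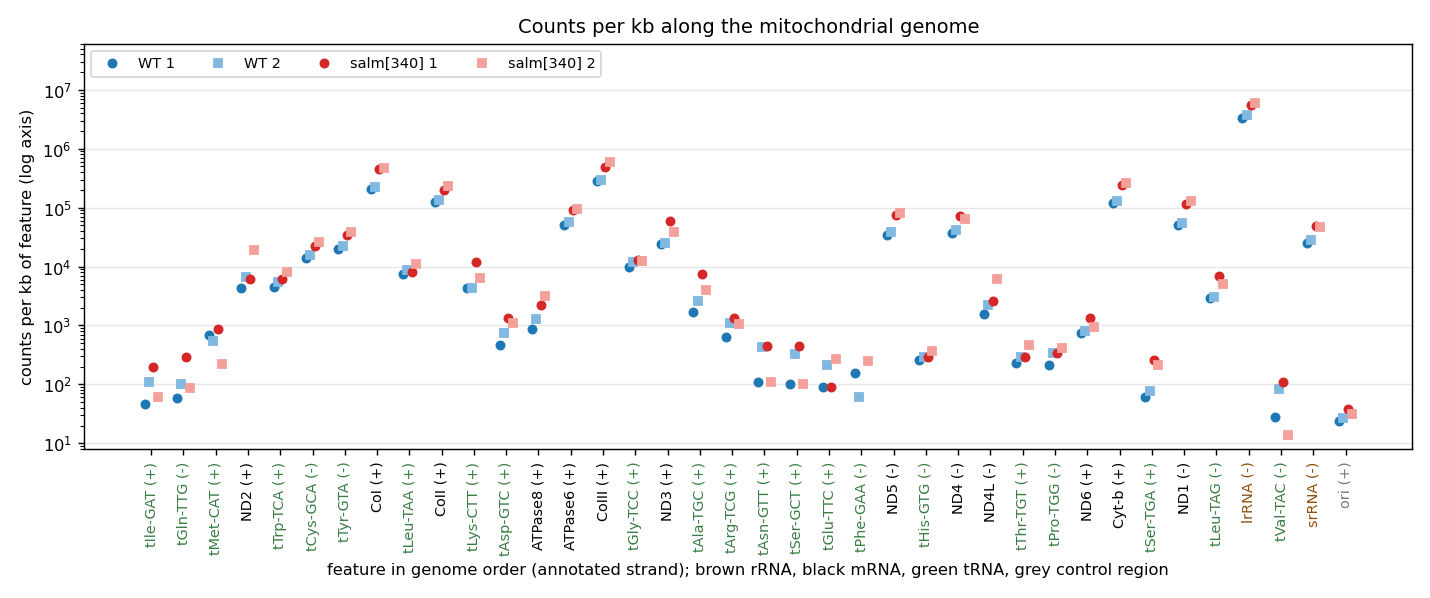
Counts per kb of feature (y axis, log scale) for the 38 mitochondrial features in genome order (x axis, annotated strand in brackets), with 1 point per library. The large rRNA stands above every other feature, mt:CoIII and mt:CoI lead the mRNAs, and most tRNA features lie far below their mRNA or rRNA neighbours; the 0 count of the phenylalanine tRNA in salm[340] replicate 1 is not drawn on the log axis.

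The libraries of a line were not alike in mitochondrial composition. The chi-square per degree of freedom over mitochondrial features was 47.7 for the WT pair (36 features) and 407 for the salm[340] pair (37 features). It takes every count as an independent molecule and grows with depth, which was higher in the mutant pair, so the 2 values do not rank the lines. For 12 of the 13 mRNAs the salm[340] shares differed by a larger ratio than the WT shares. Replicate 2 over replicate 1 ranged from 0.925 to 1.37 in WT and from 0.606 to 2.98 in salm[340]. The share of mt:ND2 was 0.0831% and 0.114% in WT but 0.0674% and 0.201% in salm[340], with the lowest and the highest values both in the mutant. That of mt:ND4L was 0.00834% and 0.0107% against 0.00809% and 0.0182%, likewise. That of mt:ND3 went the other way, at 0.159% and 0.147% against 0.231% and 0.140%. Fold changes of these 3 mRNAs within the mitochondrial total turned sign with the mutant library left out. They were 1.03 for mt:ND2 without replicate 1 and -0.55 without replicate 2, 0.93 and -0.23 for mt:ND4L, and -0.13 and 0.60 for mt:ND3.

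**Figure D4:**
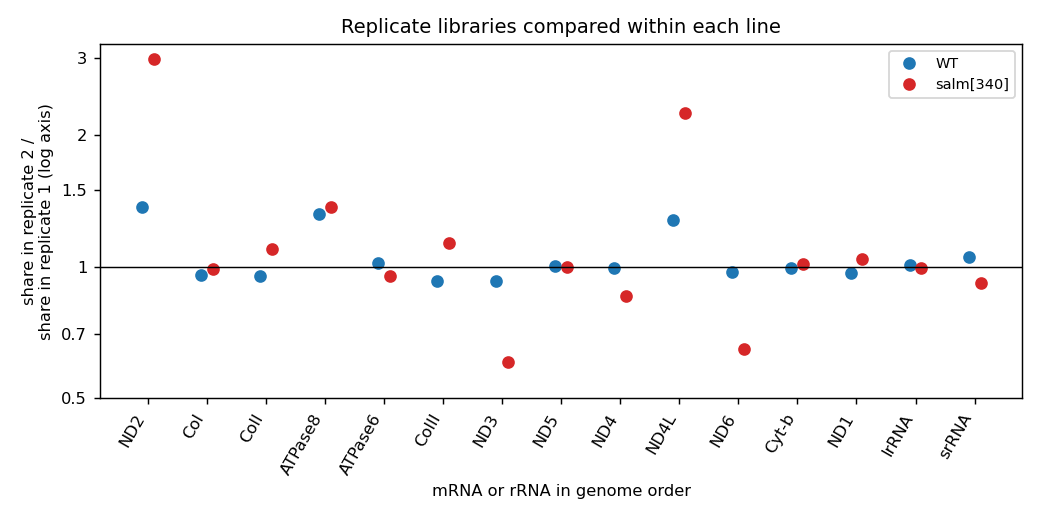
Ratio of the share in replicate 2 to that in replicate 1 (y axis, log scale) for each mitochondrial mRNA and rRNA in genome order (x axis), for WT and salm[340]. Most points lie near 1, while in salm[340] mt:ND2 (2.98) and mt:ND4L (2.25) stand above it and mt:ND3 (0.606) and mt:ND6 (0.647) below.

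Transfer RNA features were scarce and unequal. Of the 22, 8 had a mean of at least 100 counts and held 95.0% of the tRNA counts, and 11 had a mean under 30. Each of the 22 had fewer counts per kb than the higher of its neighbours, at 0.00126% to 90.2% of it. Since a fragment that touches adjoining features was counted for each, a tRNA count may include fragments of a neighbouring precursor or mRNA. How much of it does was not tested. Mature tRNAs carry no poly(A) tail.

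The tyrosine tRNA (mt:tRNA:Tyr-GTA, 1403 to 1468, minus strand) and the cysteine tRNA (mt:tRNA:Cys-GCA, 1322 to 1383, minus strand) lie side by side and had the most counts. For the tyrosine tRNA these were 1319 and 1476 in WT against 2280 and 2530 in salm[340], and for the cysteine tRNA 862 and 963 against 1392 and 1640. Both rose in the TMM fit, with log2 fold changes of 2.43 and 2.38 and no overlap. Together they took 49.2% and 47.6% of the tRNA counts in WT against 47.9% and 55.0% in salm[340]. Their combined share of the mitochondrial total was 0.0403% and 0.0405% against 0.0397% and 0.0421%, with overlap.

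Next in counts per kb came the glycine tRNA (mt:tRNA:Gly-TCC, between mt:CoIII and mt:ND3) and a leucine tRNA (mt:tRNA:Leu-TAA, between mt:CoI and mt:CoII). The glycine tRNA had 641 and 764 counts in WT against 849 and 802 in salm[340], and the leucine tRNA had 494 and 586 against 539 and 738. Their log2 fold changes, 1.87 and 1.88 in the TMM fit, were among the lower ones, and within the mitochondrial total both stood at -0.51 (edgeR adjusted p = 0.0512 and 0.0627). Both shares were lower in both mutant libraries. With the mRNA counts as the total, they were -0.74 and -0.75 (edgeR adjusted p = 0.00132 and 0.00228), and both then passed.

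The alanine tRNA (mt:tRNA:Ala-TGC, next to mt:ND3) had 109 and 171 counts in WT against 477 and 257 in salm[340]. Its log2 fold change was 3.02 in the TMM fit and 0.67 within the mitochondrial total (SE 0.326, adjusted p = 0.0418 by edgeR). Shares of this tRNA overlapped between the lines, and without salm[340] replicate 1 the value fell to 0.094 (edgeR adjusted p = 0.824). The lysine tRNA (mt:tRNA:Lys-CTT) had 309 and 302 counts against 846 and 456, and in it, too, salm[340] replicate 1 was the higher mutant library. The aspartate tRNA (mt:tRNA:Asp-GTC) had 31 and 49 against 90 and 73 counts. In the mitochondrial total, the lysine and aspartate tRNAs stood at 0.36 and 0.30 and did not pass.

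At the low end were the valine, isoleucine, phenylalanine and glutamine tRNAs, none of which was tested. The valine tRNA (mt:tRNA:Val-TAC), which lies between the large and the small rRNA, had 2 and 6 counts in WT against 8 and 1 in salm[340], or a mean of 58.2 counts per kb beside 4613590 for the adjoining large rRNA. The isoleucine tRNA had 3 and 7 against 13 and 4 counts, the glutamine tRNA 4 and 7 against 20 and 6, and the phenylalanine tRNA 10 and 4 against 0 and 16. The count of 0 allows a share of up to 3.24e-05% of the mitochondrial counts in that library (3 counts, counting error only). The methionine tRNA (mt:tRNA:Met-CAT), next to mt:ND2, had 47 and 37 against 59 and 15 counts, and its log2 fold change of 1.47 did not pass (edgeR adjusted p = 0.126). The serine tRNA mt:tRNA:Ser-TGA had 4 and 5 against 17 and 14 counts and a TMM log2 fold change of 3.37 (SE 0.812, adjusted p = 0.0196 by edgeR). With so few counts in WT it passed the filter on low counts only through the mutant libraries, which favours a high value, so neither this call nor the upper end of the range it sets is support for a rise. The asparagine tRNA (mt:tRNA:Asn-GTT), at 7 and 28 against 29 and 7 counts, overlapped and did not pass. The tryptophan tRNA (mt:tRNA:Trp-TCA), which overlaps the cysteine tRNA by 8 bases on the other strand, had 301 and 358 against 413 and 530 counts and rose by 2.16 on the log2 scale in the TMM fit. The other tRNAs had means of 11 to 292.75 counts and TMM log2 fold changes of 1.87 to 2.65. In all, 12 of the 18 tested tRNAs passed in the TMM fit, with a median log2 fold change of 2.12 over the 18. Both the 12 and the 18 include mt:tRNA:Ser-TGA.

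The strand here is that of the annotated feature, since the counting did not use the strand of the reads. Features on the minus strand hold both rRNAs, 4 mRNAs and 8 tRNAs, and took 84.9% and 85.5% of the mitochondrial counts in WT against 83.0% and 82.4% in salm[340]. The lines did not overlap, with a difference of -2.53 percentage points (exact two-sided permutation p = 0.333). Without the large rRNA, the minus-strand share was 18.0% and 18.6% against 19.2% and 18.1%, with overlap. Among the mRNAs alone it was 16.2% and 16.6% against 17.4% and 16.5%, again with overlap (exact two-sided permutation p = 0.667). With counts divided by feature length it was 13.2% and 13.5% against 14.6% and 14.0%, without overlap. Among the tRNAs it was 54.5% and 52.6% against 54.7% and 60.2%.

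Neighbouring features on 1 strand form runs. The plus-strand run from mt:CoI to the glutamate tRNA (15 features, 1474 to 6325) took 12.5% and 11.9% of the mitochondrial counts in WT against 13.9% and 14.4% in salm[340]. The plus-strand run from mt:ND6 to a serine tRNA (3 features, 9971 to 11703), almost all of it mt:Cyt-b, took 2.503% and 2.49% against 3.02% and 3.06%. The minus-strand run from the phenylalanine tRNA to mt:ND4L (5 features, 6344 to 9835) took 2.04% and 2.04% against 2.42% and 2.28%. These 3 runs were higher in both mutant libraries. The minus-strand run from mt:ND1 to the small rRNA (5 features, 11721 to 14916), which holds the large rRNA, took 82.8% and 83.4% against 80.5% and 80.0% and was lower in both. The short plus-strand run with mt:ND2 overlapped, at 0.0895% and 0.120% against 0.0725% and 0.206%.

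The control region feature mt:ori (14917 to 19524), which the files list as a pseudogene, spans the AT-rich region that holds the origins of replication. It had 111 and 122 counts in WT against 174 and 142 in salm[340], or 24.1 and 26.5 against 37.8 and 30.8 counts per kb, the lowest mean level per kb of the 38 members. In the TMM fit it rose with the rest (log2 fold change 2.08, SE 0.230), and in both mutant libraries its share of the mitochondrial total was below that of both wild-type libraries.

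Nuclear genes for the machinery of mitochondrial gene expression did not share the rise. Of a list of 44 such genes, 43 were matched and all 43 were tested. edgeR called 3 higher and 1 lower in salm[340], against 10% and 7.16% of all features, and the median log2 fold change was -0.01 (range -0.95 to 0.84), the same as over all features. None of the 7 transcription factors and polymerase genes was called. The polymerase gene PolrMT stood at -0.21 (edgeR adjusted p = 0.248) and TFAM, which packages and activates mitochondrial DNA, at 0.13 (edgeR adjusted p = 0.44). None of the 4 replication genes, of the 10 processing and stability genes or of the 7 translation factors was called. With no adjustment, mTerf5 among the transcription genes, Suv3 among the processing genes, mEFTu1 among the translation factors and IleRS-m among the tRNA synthetases would have passed as lower (edgeR adjusted p = 0.154, 0.132, 0.069 and 0.11). The synthetase genes ProRS-m and SerRS-m would have passed as higher (edgeR adjusted p = 0.128 and 0.106). Among the processing genes, bsf, an LRPPRC homolog that stabilises mitochondrial mRNAs, stood at -0.12, its partner SLIRP1 at 0.09 and the poly(A) polymerase MTPAP at -0.03.

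All 4 called genes were among the 15 mitochondrial aminoacyl-tRNA synthetases, the enzymes that charge the tRNAs. ArgRS-m rose from 13.1 ± 0.181 to 22.2 ± 3.71 CPM (SD, n = 2 each), a log2 fold change of 0.76 (SE 0.161, adjusted p = 0.0107 by edgeR). AspRS-m rose from 27.0 ± 1.19 to 38.9 ± 4.47 CPM (0.53, edgeR adjusted p = 0.0153) and PheRS-m from 109.7 ± 2.80 to 145.2 ± 13.8 CPM (0.40, edgeR adjusted p = 0.0123). TrpRS-m fell from 7.58 ± 0.963 to 4.02 ± 0.674 CPM (-0.92, edgeR adjusted p = 0.0457). These calls depended on the scaling and the libraries. With library size alone the 3 higher genes turned to -0.43, -0.67 and -0.79, and without either WT library the 4 genes kept their signs at edgeR adjusted p of 0.399 to 0.521.

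**Figure D5:**
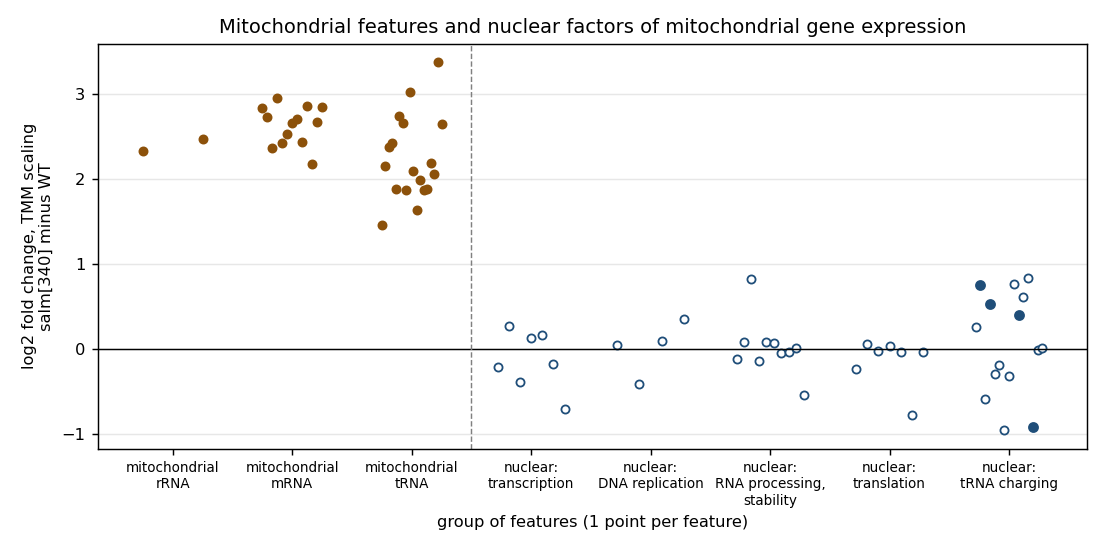
Log2 fold change of salm[340] over WT with TMM scaling (y axis) for the tested mitochondrial rRNAs, mRNAs and tRNAs and for 43 nuclear genes by role (x axis), with 1 point per feature; among nuclear genes, filled points passed an edgeR adjusted p under 0.05. The mitochondrial points lie at 1.47 to 3.37 and the nuclear ones at -0.95 to 0.84, without overlap.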

How the data were processed

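The authors deposited raw read counts per feature for 4 libraries. Counting used featureCounts 2.0.1 and Ensembl release 104 (BDGP6.32), with paired fragments, multi-mapping and multi-overlapping fragments counted for every feature, at least 10 bases of overlap and no strand option, per the file headers. Shares are therefore of counts, not of fragments, and neighbouring or overlapping features share fragments. Trimming and alignment tools include cutadapt 2.4 and STAR 2.5.4b with build BDGP6, per the submitters' processing notes. Positions are those of the files, and 33 of the 38 members have the same position and strand in release 115.

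edgeR 4.0.16 (R 4.3.3) fitted 17830 genes and tRNA genes, without 6052 transposon insertions: filterByExpr, glmQLFit and glmQLFTest, WT against salm[340], without a replicate block, Benjamini-Hochberg over the 10756 features tested, called under 0.05. One fit used TMM (factors 1.55, 1.47, 0.675 and 0.649), the other the mitochondrial total as library size. Standard errors are absolute log2 fold changes over the square root of F. CPM use TMM effective library sizes. Alternatives included DESeq2 1.42.0. The code was tested on simulated data. Over all features tested, same numbers did not pair the libraries (correlation of deviations 0.035).

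Members and lists were chosen with earlier results of these data known. Named are both rRNAs, every mRNA, the tRNAs with the 4 highest and 4 lowest counts per kb or the 4 largest changes each way within the mitochondrial total, tRNAs whose neighbours share fragments, and called members of the nuclear list. mt:ori, the marker genes and the uncalled nuclear factors fall outside that rule or were named after their values were seen.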

Additional observations from a re-analysis of the deposited data

How the results depend on the processing

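Relative to the bulk of genes, 28 members were called higher by edgeR with TMM in the reported fit, with the replicate block and with TMM factors from nuclear features only (an alternative chosen after seeing the data). Without TMM, edgeR also called 28 with DESeq2's size factors and with the nuclear total, and so did DESeq2's own test. edgeR called 31 with no filter, 29 with transposon insertions included, 27 with library size alone (no TMM) and 16 with listed genes only, which leaves out the 22 tRNA features. Of all features tested, 17.2% were called in either direction in the reported fit. That share was 77.8% with library size alone, 26.0% with the nuclear total and 13.4% to 21.1% in the other settings with all libraries. Leaving out 1 library gave 8 to 33. In such fits the lone library is assumed to vary like the other line's pair.

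Of the nuclear list, 3 were called higher and 1 lower. The counts were 0 and 39 with library size alone, where 77.8% of all features were called in either direction. They were 1 and 8 with the nuclear total, where 26.0% of all features were called. The number called lower was 3 with no filter, 0 with DESeq2, 2 with the replicate block and 2 with TMM factors from nuclear features. Leaving out 1 library gave 0 to 6 higher and 0 to 9 lower. With library size alone, ArgRS-m, AspRS-m and PheRS-m turned to -0.43, -0.67 and -0.79. The cause was not tested beyond the shift of all features given above.

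Within the mitochondrial total, 2 members were called higher and 0 lower. The counts were 0 and 3 with mRNA counts as the total, 0 and 3 without the large rRNA, 4 and 2 with DESeq2 and 6 and 2 with the replicate block. With no filter 1 was called higher. Of all features tested, 69.9% were called in either direction with no filter. That share was 90.8% to 96.1% in the reported fit and the other settings with all libraries. Leaving out 1 library gave 1 to 7 higher and 0 to 2 lower. With mRNA counts as the total, signs turned for the tyrosine tRNA (-0.20), mt:ATPase6 (-0.20), mt:CoIII (-0.10), mt:ND4 (-0.19) and mt:srRNA (-0.15). Without the large rRNA these were -0.20, -0.19, -0.10, -0.18 and -0.14. Leaving out 1 library turned the sign for mt:ND2 (-0.55 to 1.03), the cysteine tRNA (-0.084 to 0.053), mt:CoII (-0.10 to 0.03), the lysine tRNA (-0.22 to 0.77), mt:ND3 (-0.13 to 0.60), the asparagine tRNA (-2.06 to 0.56), mt:ND4 (-0.066 to 0.16), mt:ND4L (-0.23 to 0.93) and mt:ND6 (-0.55 to 0.079).

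Shares moved by more than the replicate spread only without the large rRNA or per length. Without the large rRNA, the mitochondrial share differed by 19.6 percentage points, the rRNA share by -0.190, the mRNA share by 0.280, the tRNA share by -0.0869, no longer with overlap, and the minus-strand share by 0.365. Per length, the tRNA share differed by -0.0768, and the minus-strand share of mRNA counts lost its overlap between the lines. Over all features tested, same-numbered libraries did not deviate alike (correlation of deviations 0.035). Among mitochondrial features alone this was not tested. Shares in replicate 2 over replicate 1 exceeded 1 in both lines for mt:ND2 (1.37 in WT, 2.98 in salm[340]), mt:ND4L and mt:ATPase8. They were below 1 in both lines for mt:ND3 (0.925 and 0.606), mt:CoI, mt:ND4 and mt:ND6. For the other mRNAs the lines lay on opposite sides of 1. The replicate block called 2269 features in all against 1850. Depth limits the tRNA features, 11 of which average under 30 counts.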
